A study of Mus musculus with 2 samples.

Results

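Cycling vascular endothelium of the newborn mouse heart was compared with resting vascular endothelium from the same cell suspension. Endothelial cells were barcodes with at least 500 detected genes, at least 1 count of the pan-endothelial genes Pecam1 and Cdh5, and at least 4 counts of the capillary genes Fabp4, Gpihbp1, Cldn5 and Rgcc. The haemoglobin genes had to take under 0.5% of counts, the cardiomyocyte genes Myl2 and Myl7 under 0.3%, and the endocardial genes Npr3, Tmem108, Foxc1 and Nrg1 at most 2 counts. A proliferation score was the sum of counts of Top2a, Mki67, Ccnb1, Ccna2, Cenpf, Hmmr, Anln and Racgap1. The groups were chosen by this score: cells with at least 5 are called cycling and cells with 0 resting. Of 11935 barcodes, 690 met the endothelial rule, and of these 283 were cycling (149 and 134 in technical replicates 1 and 2), 269 were resting (140 and 129) and 138 scored 1 to 4. The 8 score genes chose the groups and are left out of everything below.

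The study profiled 1 biological sample of P0 whole heart on a C57BL6+ICR background as 2 technical replicate libraries, as a reference map of heart cells for choosing reprogramming factors. The hearts were minced and digested with trypsin in a series of fractions, and cells were captured with 10x Genomics 3' version 2 chemistry. Cycling and resting cells therefore came from the same libraries, and no treatment or library separates them. Which animal a cell came from is not given. With 1 biological sample there is no test and no p-value, so each comparison is given as its value in each technical replicate.

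Endothelial cells line all vessels, and around birth the coronary capillary bed is still expanding with the growing heart muscle. A dividing cell first copies its DNA in S phase, under genes switched on by E2F factors, and later switches on the genes of chromosome segregation, many of them through the DREAM and MuvB complexes. Endothelial cells leave the cycle as vessels mature, and in arteries blood flow, Notch and BMP signalling are known to go with cell cycle arrest.

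Cycling cells were deeper than resting cells, with a median of 14925 counts per cell (14469 and 15615) against 5701 (6481 and 4406), a ratio of 2.62. The median number of detected genes was 4215 against 2318, and after every cell with at least 2000 counts was thinned at random to 2000 it was 1140.0 against 1127. Part of this depth is set by the rule, since a deep cell reaches 5 score counts more easily: after thinning, 193 of the 283 cycling cells still held 2 or more score counts and 90 did not. Levels below are CPM from summed counts, which give a gene's share of all counts of a group and not its amount per cell. The median mitochondrial share was 3.71% in cycling and 4.26% in resting cells. The 2 libraries shared 53 barcode sequences, of which 2 were cycling and 4 resting cells, and doublets were not removed.

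Endothelial markers were present in both groups. All 10 general endothelial markers were detected in each, and their summed level was 5099 CPM in cycling (4953 and 5256) and 5586 CPM in resting cells (5499 and 5698), while the glial markers Sox10 and Foxd3 were at 0 in both. Cdh5, VE-cadherin of the endothelial junction, and Pecam1 are among these 10 and were used by the rule, so they do not bear on the label. As a description, Cdh5 stood at 1024 and 1085 CPM in cycling and 1030 and 1094 CPM in resting cells. Markers of other cells were present in both groups at lower sums. All 10 cardiomyocyte markers summed to 1099 CPM in cycling and 1354 CPM in resting cells, with cell medians of 951 and 1289 CPM. All 10 fibroblast markers summed to 364 and 481 CPM, all 8 pericyte markers to 207 and 255 CPM, and all 7 smooth muscle markers to 314 and 308 CPM. Erythroid markers, which the rule limited, summed to 577 and 888 CPM. Of 9 macrophage markers, all were detected in both groups, with sums of 74.2 and 48.4 CPM. Single barcodes reached far higher, up to 72150 CPM of smooth muscle and 26175 CPM of fibroblast markers in resting cells, and 34446 CPM of lymphatic and 15312 CPM of macrophage markers in cycling cells.

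Of 7567 genes with at least 40 counts over the 2 groups in each technical replicate, 397 were at least 1.5-fold higher in cycling cells in each technical replicate (5.25%) and 151 were at least 1.5-fold lower in each (2.00%). These are the genes called higher and lower below. Higher genes also differed by more: 126 genes were past 4-fold higher in each replicate and 4 past 4-fold lower. Over all tested genes the median stayed near 0, at a log2 ratio of -0.02. Ratios are cycling over resting on pooled counts, with exact 95% intervals that cover counting error only.

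**Figure D1:**
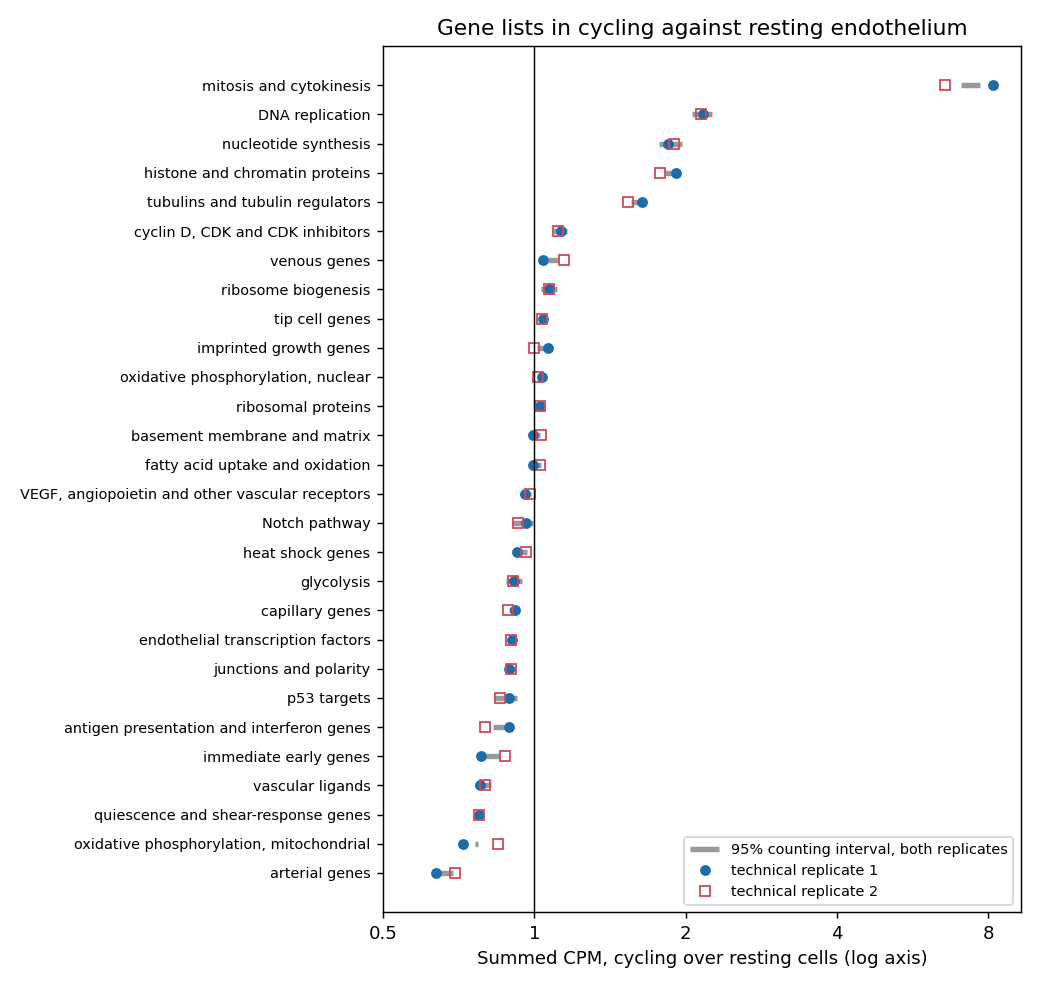
Summed CPM of each gene list in cycling over resting endothelium on a log axis, in technical replicate 1 (filled circles) and 2 (open squares), with the 95% counting interval of both together (bars). Mitosis and cytokinesis stands at 7.38, 4 further cell cycle lists between 1.59 and 2.16, and arterial genes lowest at 0.669.

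Genes of mitosis and cytokinesis separated the groups most. Every one of the 76 measured list members, score genes aside, was higher in cycling cells in each replicate, where 26.3% of all 15624 features with a count were. The summed level was 7834 CPM in cycling (7981 and 7677) against 1061 CPM in resting cells (977 and 1169). Of 74 members that passed the count minimum 73 were called higher, but 68 of those passed only through the cycling cells, so that count follows in part from the minimum. Mitosis genes are known to be induced together, and the score holds 8 of them, so the values below describe the chosen cells and support nothing further.

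Birc5, which encodes survivin of the chromosomal passenger complex, stood at 464 and 406 CPM in cycling and 11.7 and 8.07 CPM in resting cells. Ube2c, the ubiquitin-conjugating enzyme of the anaphase-promoting complex, stood at 308 and 321 CPM against 2.69 and 11.5 CPM. Cenpa, the histone of the centromere, stood at 396 and 377 CPM against 26.9 and 30.0 CPM. In all 3 genes both cycling values lay far above both resting values, and the pooled ratios were 43.2 for Birc5 (27.9 to 70.9), 47.9 for Ube2c (27.9 to 90.2) and 13.7 for Cenpa (10.5 to 18.2). Cdk1, the kinase that drives entry into mitosis, was 9.75-fold higher (7.02 to 13.9), at 183 and 181 CPM against 21.5 and 14.99 CPM. Cdc20, the activator of the anaphase-promoting complex, was 12.9-fold higher (8.31 to 21.3). Some of the most one-sided genes had no count in any resting cell: the mitotic kinase Nek2, the motor Kif15, the spindle protein Spag5, and Sapcd2 and Ankle1. Set against a floor of 3 counts over all resting cells, they were at least 16.3-fold (Nek2), 19.5-fold (Kif15), 17.3-fold (Spag5), 20.6-fold (Sapcd2) and 24.4-fold higher (Ankle1).

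Of the mitosis counts that resting cells did hold, Ube2s gave the largest part at 20%, then Arl6ip1 at 16.8% and the checkpoint protein Bub3 at 11.5%. Smc4 (5.89%) and Cks1b (5.65%) came next. Bub3 was the list member past the count minimum that was not called, at 176 and 196 CPM in cycling and 113 and 134 CPM in resting cells, a ratio of 1.52 (1.32 to 1.76).

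The promoters of Cdc20, Ube2c and Cdk1 are shown because mitosis genes are known to be repressed at rest through a CHR element near the start, often with CCAAT boxes upstream, and these 3 hold both. The sequences are from RefSeq on GRCm38.p6, 5' to 3' on the gene's strand, upstream of the start. The Cdc20 stretch is chr4:118437344-118437404 on the minus strand, the Ube2c stretch chr2:164769764-164769913 on the plus strand and the Cdk1 stretch chr10:69352914-69353063 on the minus strand. Capitals mark the CHR letters TTTGAA and the CCAAT box CCAAT on either strand, so that TTCAAA and ATTGG are the same motifs on the other strand.
Cdc20: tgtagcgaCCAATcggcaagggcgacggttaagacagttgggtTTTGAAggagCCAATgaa
Ube2c: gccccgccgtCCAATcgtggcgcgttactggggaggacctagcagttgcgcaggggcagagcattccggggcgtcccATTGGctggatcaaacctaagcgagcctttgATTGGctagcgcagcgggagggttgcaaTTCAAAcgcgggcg
Cdk1: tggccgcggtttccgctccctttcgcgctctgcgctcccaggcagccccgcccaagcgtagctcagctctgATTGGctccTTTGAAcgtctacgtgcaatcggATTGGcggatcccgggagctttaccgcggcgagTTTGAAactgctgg
In Cdc20, TTTGAA begins 18 bases before the start with CCAAT 53 and 8 bases before it. In Ube2c the CHR letters lie 29 bases before the start and CCAAT boxes lie 155, 88 and 57 bases before it. In Cdk1 the CHR letters occur at 71 and 15 bases and CCAAT at 80 and 48 bases before the start. The Ube2c and Cdk1 stretches were cut to 150 bases, and matches further upstream are not listed.

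Promoters ran from 250 bases before to 50 after the start, and letters were searched only in the 250 bases before it. Of the 76 mitosis genes 63 matched, with 69 promoters. TTTGAA or the variant TTCGAA on either strand occurred in 42% of them, against 17.1% of all 32851 promoters. CCAAT occurred in 68.1% against 33.8%, and both together in 34.8% against 6.02%. Base composition differs too, since the GC box GGGCGG occurred in 59.4% against 32.7%. Among 38 promoters of the arterial genes described below, 10.5% held CHR letters and 34.2% CCAAT. A match of letters is a description and does not show a bound site.

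Genes of DNA replication were higher by less, and 51 of 52 were higher in each replicate against 26.3% of all features. Their sum was 2491 CPM in cycling (2506 and 2474) against 1155 CPM in resting cells (1158 and 1151), a ratio of 2.16 (2.06 to 2.26). Of 43 members past the count minimum, 31 were called higher and 0 lower, 30 of the 31 having passed only through the cycling cells. The median log2 ratio of the 43 was 1.17. Mcm6, a subunit of the replicative helicase, stood at 72.7 and 66.9 CPM against 31.4 and 31.1 CPM, a ratio of 2.24 (1.70 to 2.98). Other helicase subunits differed less, with Mcm5 at 1.80 (1.37 to 2.42), Mcm3 at 1.57 (1.24 to 2.00, not called) and Mcm7 at 1.12 (0.832 to 1.54, not called). Pcna, the sliding clamp of the polymerases, stood at 42.6 and 54.5 CPM against 23.3 and 23.1 CPM. Uhrf1, which guides maintenance methylation of new DNA, was 6.00-fold higher (3.85 to 9.82). The resting helicase levels were thus well above 0, unlike those of the mitotic motors. With the score taken from thinned cells (2 or more against 0), the groups changed to 202 cycling and 379 resting cells. Mcm6, Mcm5 and Pcna were then not called, at log2 ratios of 0.65, 0.38 and 0.76.

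The E2F-type letters searched on both strands were TTCCCGC, with the variants TTGGCGC as well as TTCGCGC. The variants can overlap each other on opposite strands. Mcm6 and Mcm5 are shown because both hold paired copies, marked by capitals. The Mcm6 stretch is chr1:128359734-128359822 on the minus strand and the Mcm5 stretch chr8:75109337-75109374 on the plus strand, again from RefSeq on GRCm38.p6.
Mcm6: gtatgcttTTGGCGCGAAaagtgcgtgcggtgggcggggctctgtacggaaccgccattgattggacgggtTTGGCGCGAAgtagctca
Mcm5: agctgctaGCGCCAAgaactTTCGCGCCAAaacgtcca
At least 1 of the 3 strings occurred in 40.4% of 47 promoters of replication genes (39 of 52 genes matched), in 10.1% of mitosis promoters and in 6.69% of all promoters. CHR letters occurred in 17% of replication promoters, close to the 17.1% of all promoters, while CCAAT occurred in 61.7%, near its share in mitosis promoters. The E2F strings also occurred in 18.4% of arterial and 27.3% of histone and chromatin promoters, and CHR letters in 33.3% of the latter.

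Nucleotide synthesis split by step. The list sum was 1703 CPM against 913 CPM. Of 32 members 23 were higher in each replicate and 3 lower, against 26.3% and 27.6% of all features. The enzymes that make deoxynucleotides led: Rrm2, the cycle-regulated subunit of ribonucleotide reductase, stood at 113 and 119 CPM against 6.27 and 8.07 CPM, a ratio of 16.4 (9.69 to 30.2). Tk1, thymidine kinase, was 15.7-fold higher (9.60 to 27.7), and Tyms, thymidylate synthase, 3.07-fold (2.41 to 3.97). Dut, which removes dUTP, was 3.23-fold higher. Purine ring enzymes such as Gart, Atic and Paics were not called, with ratios of 1.15, 0.957 and 1.18.

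Histones and chromatin proteins were higher in each replicate for 43 of 46 members, against 26.3% of all features. The list sum was 15753 CPM against 8515 CPM. H2afz, the histone variant H2A.Z, stood at 2748 and 2793 CPM against 773 and 857 CPM, a ratio of 3.42 (3.25 to 3.60). Hmgb2, a DNA-bending chromatin protein, stood at 1550.0 and 1532 CPM against 264 and 338 CPM, a ratio of 5.20 (4.78 to 5.66). The linker histone Hist1h1b had 344 counts in cycling and 1 in resting cells, a ratio of 142 with an interval of 25.2 to 5606. Replication-dependent histone messages largely lack poly(A) tails, and these libraries were made from polyA RNA. The replacement histone H3f3a was at a ratio of 0.992.

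Tubulins were uneven by isotype. Tuba1b (3.53, 3.25 to 3.85), Tuba1c (9.54, 5.24 to 19.3) and Tubb5 (1.81, 1.72 to 1.91) were called higher, as was the microtubule destabiliser Stmn1, at 983 and 960 CPM against 220 and 242 CPM. Tubb2a had the opposite sign, at 91.2 and 106 CPM against 157 and 153 CPM, and was not called. Near-identical tubulin copies can exchange reads, so single isotype values are uncertain.

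**Figure D2:**
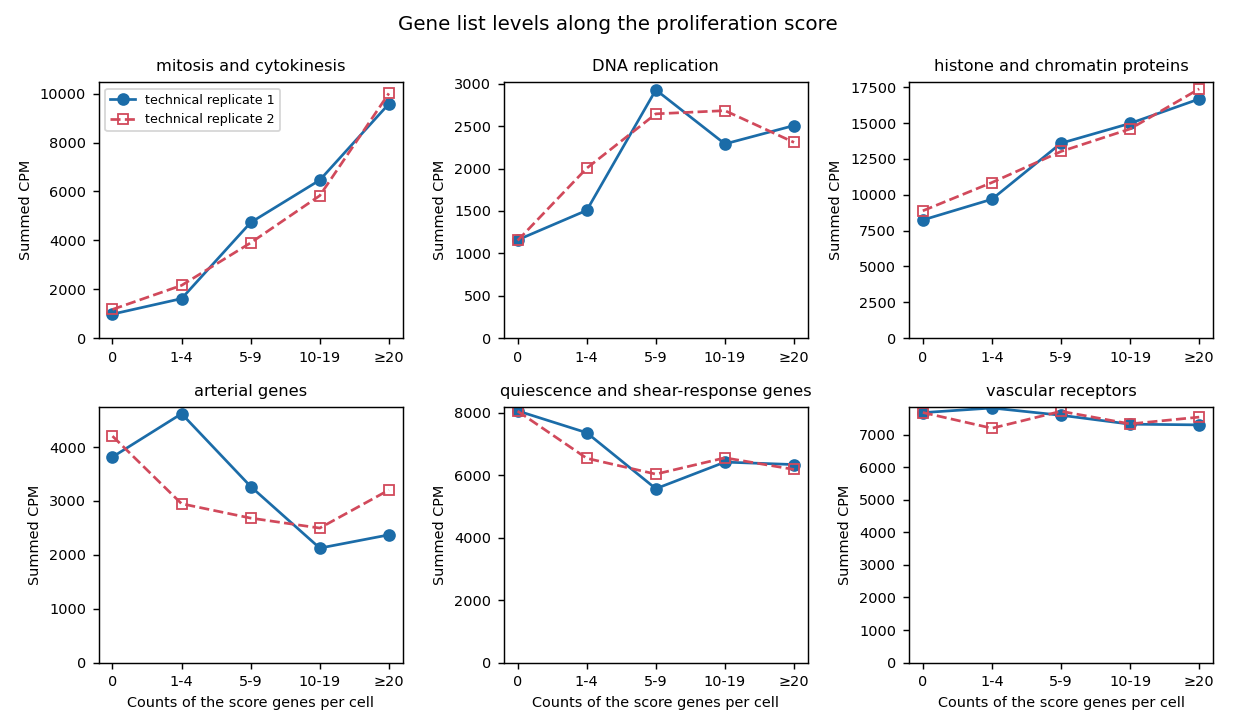
Summed CPM of 6 gene lists in endothelial cells by score (0, 1 to 4, 5 to 9, 10 to 19, 20 or more) in technical replicate 1 (filled circles) and 2 (open squares), each panel on an axis from 0. Mitosis genes climb from 1061 to 9784 CPM over both replicates, DNA replication levels off at 5 to 9, arterial genes are lower at 10 to 19 (2125 and 2497) than at 0 (3816 and 4203) in both replicates, and the vascular receptors stay between 7324 and 7677.

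Along the score, S phase and mitosis genes followed different courses. DNA replication summed to 1155 CPM at score 0, 1760 CPM at 1 to 4, 2766 CPM at 5 to 9, 2468 CPM at 10 to 19 and 2415 CPM at 20 or more. Mitosis genes summed to 1061, 1888, 4248, 6176 and 9784 CPM over the same bins. The replication program was thus near its full level in the lowest cycling bin, while mitosis genes more than doubled above it. Rrm2, Tyms, Pcna and Mcm6 were each highest at 5 to 9 (143, 148, 69.6 and 88.5 CPM) and lower at 20 or more (108, 109, 40.5 and 62.2 CPM). Ube2c rose instead from 70.8 to 462 CPM between those bins, Cenpa from 159 to 502 CPM and Birc5 from 231 to 554 CPM. The score genes are mainly genes of G2 and mitosis, so the order of bins is set by them, and median depth increased along it from 5701 to 20390 counts.

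**Figure D3:**
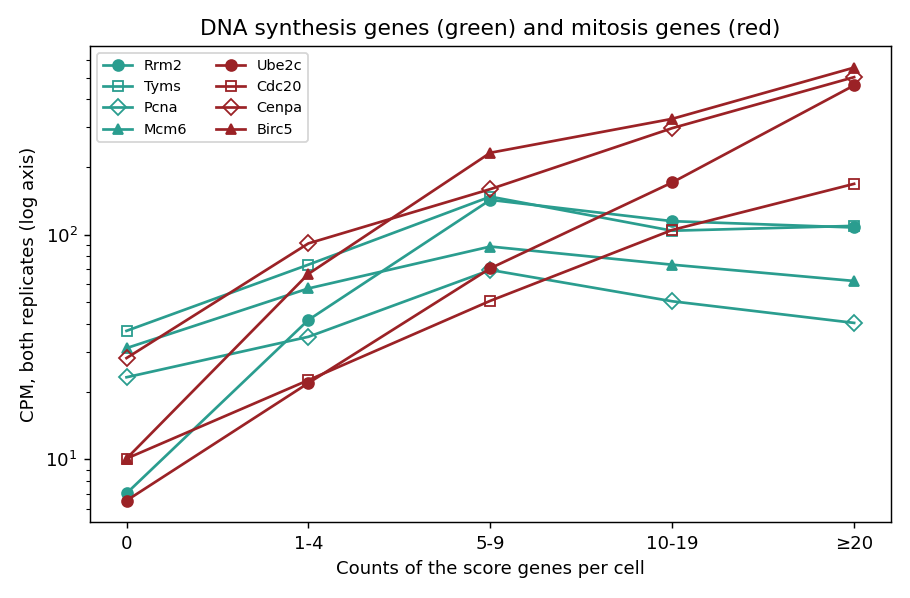
CPM of 4 DNA synthesis genes (green) and 4 mitosis genes (red) over both replicates by score, on a log axis. The green genes peak at 5 to 9 and the red genes are highest at 20 or more.

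Just outside and inside the threshold, the 15 cells at score 4 and the 20 cells at score 5 had 3410 and 3517 CPM of mitosis genes and 2203 and 2690 CPM of replication genes. Replication genes went from 1266 to 2908 CPM in technical replicate 1 and from 3057 to 2414 CPM in technical replicate 2, and arterial genes from 9199 to 5269 CPM and from 1882 to 2598 CPM. So few cells gave opposite steps in the replicates. After thinning to 2000 counts, 71.4% of cycling cells (69.1% and 73.9%) had 3 or more counts of both the replication and the mitosis list, and 27.9% of the mitosis list only. Among resting cells 48.1% had neither, 14.3% both, 24.4% the mitosis list only and 13.2% the replication list only, at a median of 1 replication and 2 mitosis counts per cell. Resting here means a score of 0, and no background share was measured for these lists.

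Regulators of G1 moved in opposite directions. The D cyclins bind Cdk4 and Cdk6 to pass growth signals into the cycle, and the Cip/Kip proteins Cdkn1a, Cdkn1b and Cdkn1c restrain the kinases. Of 38 measured members of the cyclin D, kinase and inhibitor list, 25 were higher in each replicate (all features: 26.3%) and 6 lower (27.6%). Of 31 past the count minimum 14 were called higher (13 of them passing only through cycling cells) and 4 lower.

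Ccnd2, cyclin D2, was lower in cycling cells, at 128 and 152 CPM against 299 and 298 CPM, a ratio of 0.468 (0.419 to 0.524). Ccnd1 (1.14, 1.06 to 1.23) and Ccnd3 (1.17, 1.05 to 1.31) were within 1.5-fold, with Ccnd1 at 614 and 572 CPM against 530.3 and 507 CPM. Of the D cyclins, cyclin D2 alone was past 1.5-fold. After thinning, 17.3% of cycling and 41.0% of resting cells held a Ccnd2 count. Among 500 cardiomyocyte barcodes the share was 39.0% at a median of 5120.5 counts before thinning, against 14925 and 5818 in the endothelial groups. The resting share was thus close to that of cardiomyocyte barcodes, and the part of free Ccnd2 RNA in the difference was not tested.

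Cdkn1c, the imprinted inhibitor p57, was lower at 119 and 126 CPM against 253 and 303 CPM, a ratio of 0.445 (0.395 to 0.501). After thinning it was detected in 19.1% of cycling, 34.6% of resting and 8.0% of cardiomyocyte barcodes. Cdkn1a, the p53-responsive inhibitor p21, was higher, at 92.0 and 86.6 CPM against 46.6 and 33.4 CPM, a ratio of 2.19 (1.72 to 2.81). Cdkn1a was the only 1 of 13 p53 targets past the count minimum that was called, and Mdm2 (0.849) and Bax (1.00) were not. Cdkn1b, p27, was at 1.37 (1.08 to 1.75) and not called, but was called higher with the score from thinned cells (ratio 1.68) and with depth-matched resting cells (1.94). The INK4 inhibitors Cdkn2c and Cdkn2d were 12.9-fold (8.53 to 20.5) and 4.53-fold higher (3.39 to 6.15), and the transcription factors E2f1 and Foxm1 2.85-fold and 28.4-fold, Foxm1 on 2 resting counts (interval 7.71 to 237). The anti-proliferative genes Tob1 (0.304, 0.194 to 0.475) and Btg2 (0.598, 0.523 to 0.684) were lower. With the score from thinned cells E2f1 and Btg2 were not called, at log2 ratios of 0.42 and -0.70. The inhibitors thus differed in sign, with p57 lower and p21, p18 and p19 higher in cycling cells.

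Arterial genes were the main group lower in cycling endothelium. Of 35 measured members 25 were lower in each replicate, against 27.6% of all features, and 2 higher. The sum was 2665 CPM in cycling (2430.0 and 2916) against 3985 CPM in resting cells (3816 and 4203), a ratio of 0.669 (0.650 to 0.688). Of 24 past the count minimum 12 were called lower and 0 higher, 6 of the 12 passing only through resting cells. The median log2 ratio of the 24 was -0.71, against -0.02 over all tested genes.

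Cxcl12, the chemokine of arterial endothelium, stood at 33.3 and 42.9 CPM in cycling against 342 and 334 CPM in resting cells, a ratio of 0.112 (0.0946 to 0.132). Gja4, which encodes the arterial gap junction protein connexin 37, stood at 10.8 and 19.7 CPM against 78.8 and 136 CPM, a ratio of 0.146 (0.110 to 0.191). In both genes the lower resting replicate was several-fold above the higher cycling replicate. Hey1, the Notch effector, was at 0.347 (0.272 to 0.444), the semaphorin Sema3g at 0.281 (0.184 to 0.425) and the Notch ligand Jag1 at 0.382 (0.278 to 0.526). Sox17, an arterial transcription factor, stood at 98.4 and 121 CPM against 198 and 285 CPM, a ratio of 0.464 (0.409 to 0.527). Mecom, another factor of arterial endothelium, was at 0.465 (0.392 to 0.551). Enpp2, the enzyme autotaxin and the lowest ratio of all genes with at least 100 counts (0.0965, 0.0553 to 0.160), took 42% of its resting counts from a single cell and was at 0.165 without it. Nebl (0.218) took 27.9% from a single cell and was at 0.299 without it. With the score from thinned cells Sema3g and Jag1 were not called, at log2 ratios of -0.97 and -0.82.

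Some arterial genes were within the fold or too sparse. The receptors Notch1 (1.22, 1.06 to 1.40) and Notch4 (1.04, 0.839 to 1.28), the ligand Dll4 (0.829, 0.672 to 1.03) and Nrp1 (1.09) were within 1.5-fold. Gja5, connexin 40, missed the count minimum, with 2.41 and 27.9 CPM in cycling and 12.5 and 50.7 CPM in resting cells. Within each library its ratio was below 1, at 0.192 and 0.549. Over both libraries together it had 71 counts in cycling and 58 in resting cells. In technical replicate 1 both groups together held fewer than 40 counts.

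**Figure D4:**
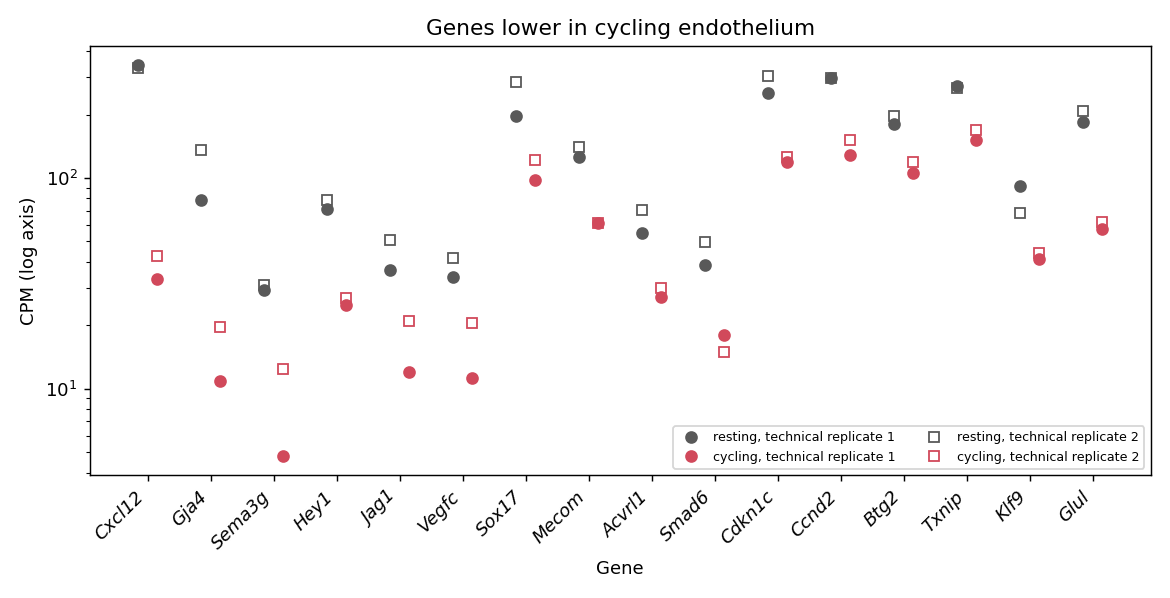
CPM of 16 genes called lower in cycling endothelium, in resting (grey) and cycling cells (red) of technical replicate 1 (filled circles) and 2 (open squares), on a log axis. In each gene both cycling points lie below both resting points, with the widest gaps for Cxcl12 and Gja4.

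The share of cells holding an arterial gene was lower too. After thinning, a Gja4 count was found in 2.83% of cycling and 7.52% of resting cells, against 0.4% of cardiomyocyte barcodes, and a Cxcl12 count in 6.01%, 16.5% and 3.2%. Sox17 was found in 18.7%, 30.1% and 0.2%. The Jag1 shares were 3.18% (1.46 to 5.95), 5.26% (2.91 to 8.67) and 4.2% (2.62 to 6.35), with overlapping intervals. Detection of Jag1 in endothelial cells was thus not told apart from that in cardiomyocyte barcodes. Whether cardiomyocytes make these RNAs themselves was not tested, so their shares are no measure of free RNA. Unthinned, the Gja4 shares were 10.2% and 15.4%, and those of Sox17 68.9% and 56.8%, for Sox17 the opposite order to the thinned one.

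Counted from the side of the subset, cells with 2 or more counts of the arterial markers Gja5, Hey1, Sox17, Bmx, Sema3g and Jag2 after thinning were found with score counts at a lower share. Of 76 such cells 12 held 2 or more score counts, or 15.8% (exact Clopper-Pearson 95% interval 8.43 to 26.0, with 17.1% and 14.3% in the replicates). Of the other 610 cells 190 did, or 31.1% (27.5 to 35.0, with 32.4% and 29.9%). The ratio of shares was 0.507 (0.257 to 0.906), and 0.706 (0.483 to 1.01) when cells were thinned to 4000 counts. Tip cell markers, of sprouting endothelium, gave 28.3% of 60 cells against 29.6% of 626. Venous markers gave 28.2% of 280 cells against 30.3% of 406, with opposite signs in the replicates. The markers include Hey1, Sox17 and Sema3g, given above as lower in cycling cells, so these shares restate that difference per cell and are no independent support. The intervals cover the counting of cells within 1 sample only. The arterial difference was larger than that of either other subset in value, and a difference between the subsets was not tested.

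**Figure D5:**
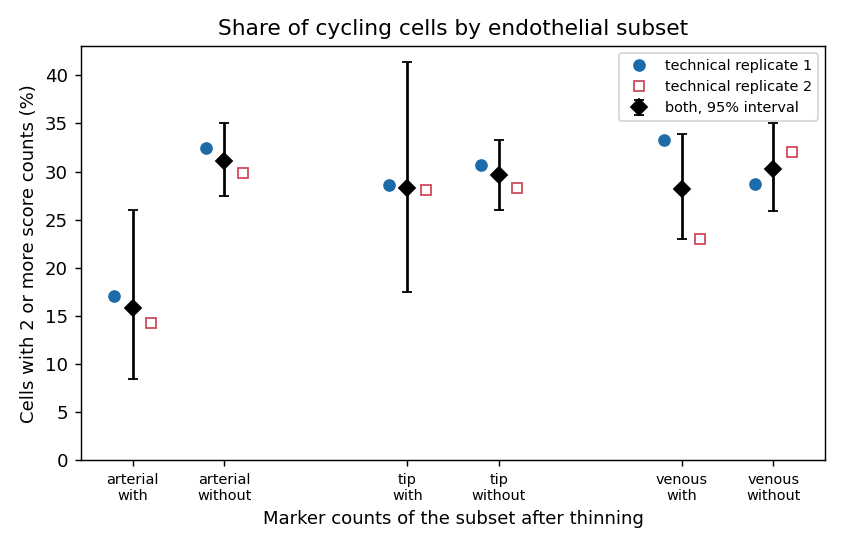
Percent of endothelial cells with 2 or more score counts after thinning to 2000 counts, among cells with and without 2 or more marker counts of each subset, for technical replicate 1 (filled circles), 2 (open squares) and both with the exact 95% interval (diamonds). Arterial-marker cells stand at 15.8% against 31.1%, while tip and venous pairs lie within each other's intervals.

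Without cells that held a count of selected arterial genes after thinning, which left 234 cycling and 185 resting cells, other lower genes were examined again. The ratio of Cdkn1c was then 0.59, of Ccnd2 0.52 and of Acvrl1 0.57, all still called lower, while Sox17 was at 0.66 and Mecom at 0.72 and neither was called. The removal used arterial genes themselves, so their own values there are a description. It did not cover the whole arterial list, and the genes it used are not named here. Remaining cells can therefore hold counts of other arterial genes.

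Genes of quiescence and of the response to shear flow leaned the same way by less. Of 32 members 26 were lower in each replicate, against 27.6% of all features. The sum was 6246 CPM (6248 and 6243) against 8051 CPM (8055 and 8046). Of 30 past the count minimum 6 were called lower, against 2.00% of all tested genes, and 0 higher. The median log2 ratio of the 30 was -0.43. Smad6, an inhibitor of BMP signalling, was at 18.1 and 15.01 CPM against 38.5 and 49.6 CPM, a ratio of 0.383 (0.279 to 0.525). Klf9 (0.526), Pik3ip1 (0.531), Txnip (0.591) and Tmem100 (0.601) were also called, with Txnip, a FoxO-responsive inhibitor of glucose uptake, at 152 and 169 CPM against 273 and 268 CPM. The flow-induced factors Klf2 (0.775, 0.735 to 0.816) and Klf4 (0.703, 0.631 to 0.785) and the BMP targets Id1 (0.722, 0.674 to 0.773) and Id3 (0.828, 0.789 to 0.869) were lower in both replicates but within 1.5-fold. Nos3 was level at 1.05. The calls of Klf9, Pik3ip1, Txnip and Tmem100 ended with the score from thinned cells, at log2 ratios of -0.73, -0.66, -0.48 and -0.09.

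Among receptors, 2 of 34 were called lower and 0 higher, against 2.00% and 5.25% of all tested genes. The sums were 7432 and 7677 CPM in cycling and resting cells. Acvrl1, the BMP9 and BMP10 receptor ALK1, stood at 27.3 and 30.0 CPM against 54.6 and 70.3 CPM, a ratio of 0.465 (0.362 to 0.599), and Ackr3, the CXCL12 scavenger receptor, at 0.548 (0.367 to 0.826). The VEGF receptors Kdr (1.10, 1.04 to 1.18) and Flt1 (0.906, 0.836 to 0.982) and the angiopoietin receptor Tek (0.979, 0.843 to 1.14) were within 1.5-fold, and Kdr stood at 788 and 735 CPM against 694 and 686 CPM. Of 21 ligands past the count minimum 6 were called lower, namely Cxcl12, Sema3g, Jag1, Vegfc (0.422), Mdk (0.507) and Pdgfd (0.633). Of these 6, 4 passed the minimum only through resting cells. Over all 36 measured ligands 18 were lower in each replicate, against 27.6% of all features. Without cells holding an arterial count Mdk was at 0.818 and not called. Vegfb was higher at 1.78 (1.10 to 3.02) on 21 resting counts. Ackr3, Pdgfd and Vegfb were not called with the score from thinned cells, at log2 ratios of -0.50, -0.59 and 0.53. Apln, the ligand made by sprouting endothelium, was at 164 and 158 CPM against 116 and 128 CPM (1.33, 1.15 to 1.55) and was detected in 23.3% of cycling, 15.8% of resting and 0.6% of cardiomyocyte barcodes after thinning. Its receptor Aplnr had the opposite sign, at 0.758 (0.695 to 0.826). The apelin pair thus differed in sign, both within 1.5-fold.

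Few genes of endothelial identity were past 1.5-fold in each replicate. Of 41 endothelial transcription factors past the count minimum 2 were called lower, Hey1 and Sox17, against 2.00% of all tested genes. Erg (1.17), Fli1 (1.01), Sox18 (0.886) and Tal1 (1.14) were within 1.5-fold. Capillary genes were lower in each replicate for 28 of 32 members, against 27.6% of all features, by small steps. Their sum was 17880 CPM against 19818 CPM, a ratio of 0.902 (0.892 to 0.913). Of 29 past the count minimum 1 was called lower, the taurine transporter Slc6a6 (0.527, 0.488 to 0.569). It was not called with the score from thinned cells (log2 ratio -0.54). The fatty acid transporter Cd36 was at 0.904 and the water channel Aqp1 at 0.717. The rule asked for 4 capillary counts in shallow and deep cells alike, and its part in these ratios was not tested. Of 23 tip cell and 11 venous genes past the count minimum 0 were called either way. At the shares of all tested genes, 5.25% higher and 2.00% lower, lists of this size hold few calls.

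Among growth and metabolism lists, ribosomal and nuclear mitochondrial genes were level. None of 76 ribosomal protein genes and none of 54 nuclear genes of oxidative phosphorylation was called, with list ratios of 1.02 (1.02 to 1.03) and 1.03 (1.02 to 1.04). Of the 13 mitochondrially encoded genes 11 were lower in each replicate, against 27.6% of all features, with 0 past 1.5-fold in each. All 13 summed to 43207 CPM (44658 and 41659) against 56367 CPM (61854 and 49305), a ratio of 0.767 (0.761 to 0.772). Their median log2 ratio lay between -0.531 and -0.109 over the settings examined. Over 10% mitochondrial counts were found in 19 cycling and 27 resting cells. Of 30 basement membrane genes 0 were called, though Col4a1 was at 1.17 (1.12 to 1.22). The imprinted growth genes Igf2 (0.990, 0.910 to 1.08) and H19 (1.02, 0.964 to 1.07) were level, in contrast to Cdkn1c of the same list. Aldoa (0.575, 0.527 to 0.627) was the single glycolysis gene of 12 called, Zfp36 (0.522) the single immediate early gene of 17 and Psmb10 (0.581) the single antigen presentation gene of 18, all lower. Of 24 genes of fatty acid uptake and oxidation and 14 heat shock genes 0 were called, and of 26 ribosome biogenesis genes Nop58 was called higher. Of 16 Notch pathway genes past the count minimum 3 were lower (Hey1, Jag1 and the fringe enzyme Lfng) and 1 higher (the coactivator Maml1), and of 23 junction genes Gja4 was lower. Lfng, Maml1, Nop58 and Psmb10 were not called with the score from thinned cells, at log2 ratios of -0.37, 0.31, 0.50 and -0.61, and Lfng and Psmb10 not with depth-matched resting cells either (-0.48 and -0.44).

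Depth was examined with resting cells paired to cycling cells of similar total counts, 103 pairs in technical replicate 1 and 74 in technical replicate 2, with medians of 9921 against 8213 and 9494 against 8187 counts. There, the log2 ratio of Birc5 was 5.62 (5.43 over all cells), of Hmgb2 2.57 (2.38), of Mcm6 1.06 (1.16), of Cdkn1c -1.32 (-1.17), of Ccnd2 -1.16 (-1.09), of Sox17 -1.05 (-1.11) and of Cxcl12 -2.94 (-3.16). Of 107 called genes followed in these pairs 76 kept the call, 26 fell under the count minimum and 5 were not called: Klf9, Lfng, Psmb10, Bnip3 and Mylip. Among genes within 1.5-fold, Kdr, H19, Notch4, Nos3 and Cd36 changed sign, at log2 ratios of -0.02, -0.30, -0.16, -0.125 and 0.02. In these pairs Klf4 was called lower, at a ratio of 0.640, and Mcm3 higher, at 1.90, as was Cdkn1b (1.94).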

How the data were processed

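The authors' deposited values are whole-number counts per gene and barcode for 2 libraries; Cell Ranger 2.1.0 and mm10 stand in the submitters' processing notes. Whether a count is a UMI or a read is not given in the sources used here. Both records carry the same internal identifier, so each table was paired with its own record. Symbols and coordinates came from GENCODE vM21 (GRCm38) for 27645 of 27999 features. Counts were summed per group and technical replicate and expressed as CPM over all genes. A gene was called at 1.5-fold or more in each replicate, with at least 40 counts over both groups in each. Ratio intervals are conditional binomial and share intervals Clopper-Pearson, at 95%. Thinning drew 2000 counts per cell with seed 1 and left out 3 resting cells and 1 cell scored 1 to 4. The cell rule, score, gene lists and motifs were chosen with earlier results of these data known. Named genes were, per list, up to 6 called members at each end of the ratio, the 12 highest and 12 lowest ratios among called genes with at least 100 counts, and a fixed list of 37 genes; further genes were picked with their values in view. The comparison was tested on simulated data. Alternatives varied the score, depth, scaling, filters and cells. The tools were pandas 2.3.3, scipy 1.17.1, numpy 2.4.6 and matplotlib 3.10.9 under Python 3.11.15.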

Additional observations from a re-analysis of the deposited data

How the results depend on the processing

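The 397 genes higher and 151 lower became 251 higher (208 shared) and 122 lower (59 shared) with depth-matched resting cells, where 5317 in place of 7567 genes were tested, 221 and 58 at a count minimum of 100, 256 lower at a minimum of 20, and 233 and 31 at 2-fold. With a single replicate, 773 to 850 were higher and 562 to 617 lower, since agreement of 2 replicates was no longer asked. Lists past 1.5-fold in median numbered 5, and 2 at 2-fold. Without cells holding an arterial count, an alternative chosen after seeing the data, 97 were lower (55 shared) and 5 log2 ratios reversed, on fewer counts than the minimum: Jag1 1.25, Vegfc 0.092, Gja4 0.15, Nebl 0.49 and Enpp2 0.38. The score taken from thinned cells gave 202 cycling and 379 resting cells, against 283 and 269 in the main comparison. Its resting group thus included cells that held score counts before thinning. This score moved 68 of 148 gene ratios by more than their counting interval, such as Birc5 from a log2 ratio of 5.43 to 3.17. The cause was not tested. The genes so marked above were then not called. Of 109 called genes followed over up to 19 alternatives, 74 kept the call wherever they passed the count minimum. Vegfc, Smad6 and Klf9 were not called from means over cells. Leaving out barcodes with 3 counts of fibroblast, macrophage, pericyte or cardiomyocyte markers left 4 cycling and 20 resting cells and was not run. The same without cardiomyocyte markers was added and left 186 cycling and 214 resting cells. Of 5496 genes tested there, 299 were higher (241 shared) and 108 lower (59 shared). Of 107 called genes followed, 77 kept the call, 8 were not called and 22 fell under the count minimum. No paired analysis was possible because no test was made with 1 biological sample; the ratios are already taken within each technical replicate. Sampling 1 biological sample, unremoved doublets and unequal depth limit all values.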
